A study of Mus musculus with 16 samples.

Results

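Tnfrsf11b, Bmp4, Mgp, Ctsk, Runx2, Alpl, Spp1 and Bmp2 are 8 genes of bone formation, bone resorption and mineralization, and they were followed by name through every array of the series. The array annotation pairs 5 of the 8 genes with a probe set of their own, which gave 6 of the 45037 probe sets and 5 of the 17097 named genes. Tnfrsf11b has 2 probe sets (1418309_PM_at and 1449033_PM_at), and Bmp4 (1422912_PM_at), Mgp (1448416_PM_at), Ctsk (1450652_PM_at) and Bmp2 (1423635_PM_at) have 1 each. The annotation used here names no probe set for Runx2, Alpl or Spp1, and these 3 genes were not analysed here.

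The arrays compared mice lacking nuclear myosin 1 (NM1 KO) with NM1 wild-type (WT) mice, NM1 being a nuclear isoform of the motor protein encoded by Myo1c. KO lungs and WT lungs came from 3 mice each, and KO heart and WT heart from the same mice, with numbers 1586, 1602 and 1603 for KO and 1592, 1593 and 1624 for WT. Skin fibroblasts, labelled as cells, came from 2 KO samples (1550 and 1584) and 2 WT samples (1571 and 1623). The labels give no strain, age or sex, no culture conditions, and not which part of Myo1c was deleted.

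Values are log2 signals per probe set as deposited, and the median of all values was 3.79. Array medians lay between 3.65 and 3.93. The leading probe set of Myo1c, whose position relative to the deletion is not known, averaged 9.50 ± 0.33 in KO lungs and 10.65 ± 0.33 in WT lungs, 8.42 ± 0.12 in KO heart and 9.26 ± 0.07 in WT heart (SD, n = 3 each), and 8.69 ± 0.06 in KO fibroblasts and 10.01 ± 0.27 in WT fibroblasts (SD, n = 2 each). The labelled tissues carried their defining transcripts. Sftpc, the surfactant protein of alveolar cells, was between 13.92 and 14.14 in the 6 lungs. Myl2, a myosin light chain of ventricular muscle, was between 13.83 and 13.98 in the 6 hearts, and Col1a1, the main fibrillar collagen chain, was between 10.88 and 11.61 in the 4 fibroblast samples. Some arrays stood apart from others of their group: the mean of 7 measured adipocyte markers was 7.84 and 8.20 in the lungs of KO 1603 and 1586 and 6.59 in those of WT 1592, against 3.73 to 4.03 in the other 3 lungs, and atrial markers were low in 2 KO hearts, as given with the heart results.

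Bone is kept in balance by cells that lay down mineralized matrix and by osteoclasts that dissolve it. BMP ligands push mesenchymal cells towards the bone-forming fate, RANK ligand drives osteoclast formation, and a secreted decoy receptor, osteoprotegerin, binds RANK ligand and blocks it. Outside the skeleton the same genes serve soft tissue: BMP ligands pattern lung and heart, and matrix Gla protein keeps arteries and cartilage free of mineral. Fibroblasts are mesenchymal cells, the lineage that also gives rise to bone-forming cells.

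Bmp4 and Ctsk were the only measured members with an entry in the promoter table. The 250 bases upstream of their start sites are therefore shown. Against lungs and against heart, fibroblasts were lower in Bmp4 and higher in Ctsk. The sequences are those of RefSeq on GRCm38.p6, read in the direction of transcription, and 2 of the 5 measured members had an entry in the promoter table. Bmp4 lies on the minus strand and its stretch is chr14:46390670-46390919, and Ctsk lies on the plus strand with its stretch at chr3:95498960-95499209. Capitals mark a GC box (GGGCGG).
Bmp4: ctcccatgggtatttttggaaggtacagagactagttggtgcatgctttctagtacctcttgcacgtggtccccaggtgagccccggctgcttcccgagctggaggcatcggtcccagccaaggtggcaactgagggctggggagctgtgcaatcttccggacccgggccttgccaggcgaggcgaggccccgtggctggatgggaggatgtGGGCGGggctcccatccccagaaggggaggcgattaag
Ctsk: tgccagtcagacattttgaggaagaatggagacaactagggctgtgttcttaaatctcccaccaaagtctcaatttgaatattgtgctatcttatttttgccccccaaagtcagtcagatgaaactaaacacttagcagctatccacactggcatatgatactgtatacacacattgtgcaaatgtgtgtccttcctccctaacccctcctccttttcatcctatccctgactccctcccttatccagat

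The Bmp4 stretch held 63.2% G and C, the Ctsk stretch 43.2%, and the median of all 32851 promoter entries was 52.4%. Both strands were searched for 4 short motifs that do not overlap one another. The GC box was spelled GGGCGG, and 32.7% of all promoter entries held it on either strand. For RUNX factors the core TGTGGT was used, which 4614 of the 32851 entries held. The TATA box was spelled TATAAA and was held by 12.4% of all entries. The M box, a sequence read by MITF, was spelled CATGTG and was held by 12.3%. The only match in these windows was the GC box of Bmp4, on the sense strand 38 to 33 bases before the start. None of the 4 strings of letters occurs in the Ctsk window.

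Bmp2 and Bmp4 are the ligands of the list, and both are secreted growth factors that signal through SMAD proteins. Bmp4 had a log2 signal of 8.57, 9.11 and 9.05 in KO lungs (mice 1586, 1602 and 1603) and 9.06, 9.47 and 8.94 in WT lungs (mice 1592, 1593 and 1624). In hearts of the same mice the KO values were 5.69, 5.58 and 6.55, and the WT values 6.95, 7.09 and 6.56. KO fibroblasts had 3.48 and 3.98 (1550 and 1584), and WT fibroblasts 2.91 and 3.23 (1571 and 1623). The 3 tissues did not overlap: lungs were highest, heart lay in between, and in fibroblasts 3 of 4 values were below the median of all values.

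Bmp2 followed a similar order at low signal. It was 4.55, 4.07 and 4.37 in KO lungs (1586, 1602 and 1603) and 4.89, 5.18 and 4.99 in WT lungs (1592, 1593 and 1624). KO hearts had 3.12, 3.10 and 3.62 and WT hearts 3.42, 4.63 and 3.50, and KO fibroblasts had 3.06 and 3.26 and WT fibroblasts 2.99 and 2.63. The lungs were above the median of all values in all 6 mice, whereas heart passed it only in WT 1593 and no fibroblast sample did.

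Tnfrsf11b encodes osteoprotegerin, the decoy receptor for RANK ligand. Its probe set 1449033_PM_at had values of 6.44 and 6.90 in KO fibroblasts (1550 and 1584) and 4.76 and 5.79 in WT fibroblasts (1571 and 1623). It stayed between 2.97 and 3.16 in KO lungs and between 3.10 and 3.45 in WT lungs, and between 2.51 and 2.86 in KO heart and between 2.61 and 2.71 in WT heart. All 4 fibroblast samples lay above all 12 lungs and hearts, and both KO fibroblast values were above both WT values. The other probe set, 1418309_PM_at, was below the median of all values on every array, with its highest value, 3.77, in KO fibroblasts 1584, and was not tested.

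Mgp encodes matrix Gla protein, a vitamin K-dependent inhibitor of calcification, and it was high everywhere. It was 12.97, 13.11 and 13.04 in KO lungs and 13.23, 13.15 and 13.32 in WT lungs, in the mouse order given for Bmp4. KO hearts had 11.37, 11.00 and 12.00 and WT hearts 12.27, 12.47 and 11.95, and KO fibroblasts had 12.33 and 12.44 and WT fibroblasts 11.94 and 12.60. Lungs were above every heart and fibroblast sample, while heart and fibroblasts overlapped.

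Ctsk encodes cathepsin K, the collagen-cleaving protease best known from osteoclasts and also made by fibroblasts. It was 10.42 and 10.07 in KO fibroblasts (1550 and 1584) and 9.62 and 9.30 in WT fibroblasts (1571 and 1623). It was 7.19, 7.50 and 7.68 in KO lungs and 7.88, 7.20 and 7.62 in WT lungs. Heart values were 6.12, 4.94 and 6.19 in KO (1586, 1602 and 1603) and 6.87, 6.96 and 6.20 in WT (1592, 1593 and 1624). Fibroblasts were highest, lungs came next and heart was lowest, with no overlap between tissues. The mean of 14 macrophage markers was between 3.74 and 3.84 in KO fibroblasts and between 3.85 and 3.89 in WT fibroblasts, against 6.86 to 7.20 in KO lungs and 7.08 to 7.27 in WT lungs.

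**Figure D1:**
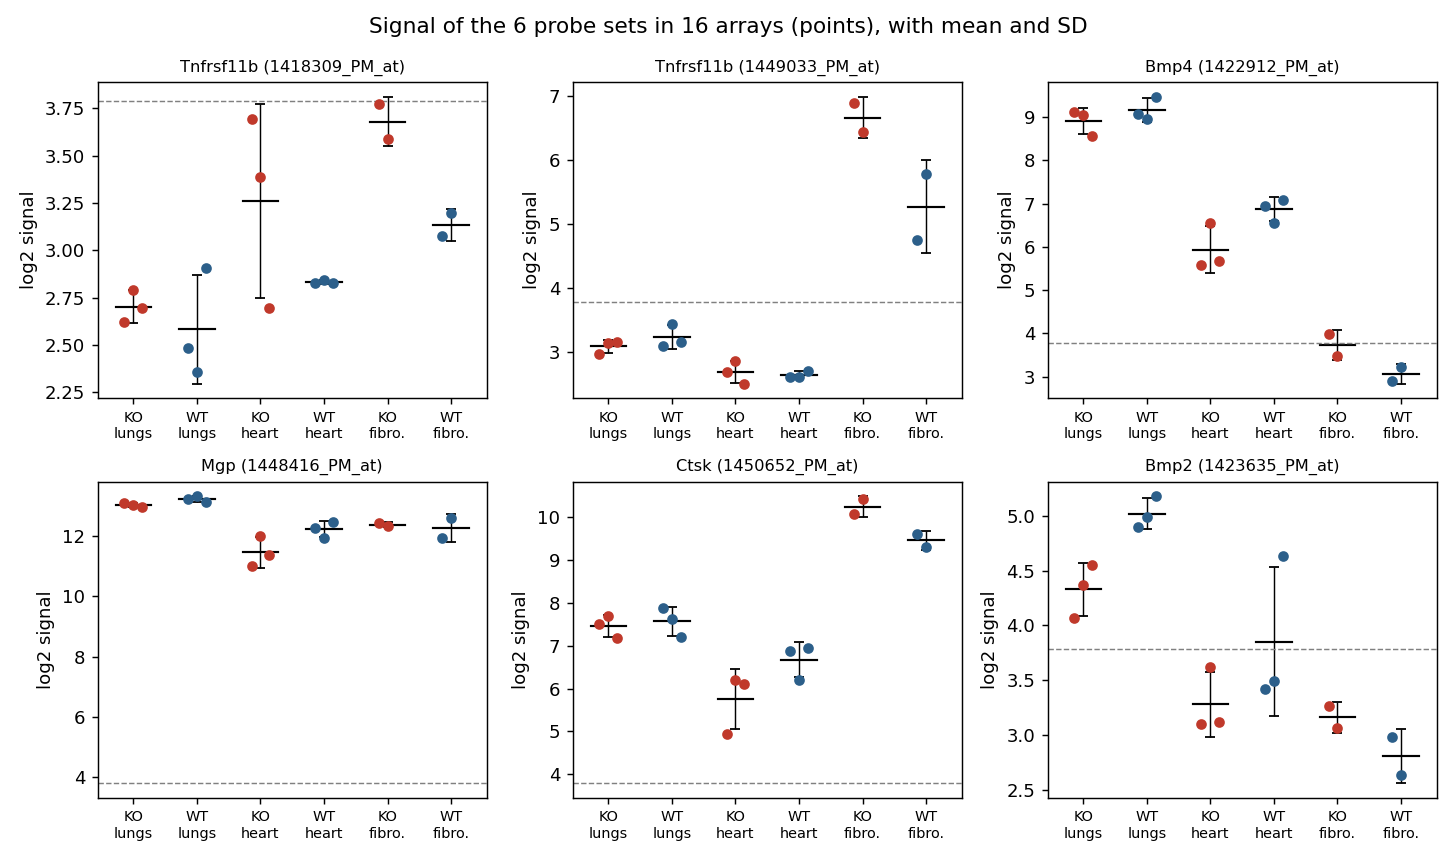
Log2 signal (y axis) of the 6 probe sets on each of the 16 arrays, by genotype and tissue (x axis; fibro. is skin fibroblasts). Points are samples, horizontal lines are group means, bars are SD, and the dashed line is the median of all values, 3.79; Bmp4 was highest in lungs, while Ctsk and Tnfrsf11b 1449033_PM_at were highest in fibroblasts.

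Tissues were compared within each genotype with limma. Probe sets were tested if their mean over the KO and WT arrays of a compared tissue was above 3.79. A difference was called at a Benjamini-Hochberg adjusted p under 0.05 over all of them. In bulk samples, fewer cells of a type and less RNA per cell cannot be told apart. A member that lay above 3.79 in only 1 of the tissues entered the fit through the tissue where it was high and had to differ. For such members the text gives only the log2 difference, with no test and no fold. In WT fibroblasts against WT lungs, Mgp and Ctsk lay above that level in both tissues and both were called, where 60.1% of all tested probe sets were called (31.7% higher, 28.4% lower). Ctsk was 3.71-fold higher in WT fibroblasts (log2 difference 1.89 ± 0.35, SE, adjusted p = 0.000351) and Mgp 1.95-fold lower (-0.97 ± 0.25, adjusted p = 0.00492). The ligands Bmp4 and Bmp2, low in fibroblasts, had log2 differences of -6.09 and -2.21, and the decoy receptor Tnfrsf11b (1449033_PM_at), low in lungs, had one of 2.04.

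In WT fibroblasts against WT heart, 1 of the 2 members above 3.79 in both tissues was called, where 63.8% of all tested probe sets were. Ctsk was 6.89-fold higher in fibroblasts (log2 difference 2.78 ± 0.35, SE, adjusted p = 8.85e-06). Mgp did not pass the test, with a log2 difference of 0.04 and a 95% interval of -0.51 to 0.59. Tnfrsf11b, low in heart, had a log2 difference of 2.63, and Bmp4, low in fibroblasts, one of -3.80. In WT lungs against WT heart, 3 of the 3 members above 3.79 in both tissues were called higher in lungs, where 60.2% of all tested probe sets were called and 34.8% were called higher. Bmp4 was 4.90-fold higher in lungs (log2 difference 2.29 ± 0.26, SE), Mgp 2.01-fold higher (1.01 ± 0.23) and Ctsk 1.86-fold higher (0.89 ± 0.31). Bmp2 had a log2 difference of 1.17. It averaged 3.85 in WT heart but lay below 3.79 over KO and WT hearts together. Most of all tested probe sets differed between any pair of tissues, so the members' counts alone are no result.

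In the same comparisons on KO samples the means come from other arrays, while the spread was estimated from all 16 arrays, as for WT. Of the members above 3.79 in both tissues, 2 of 2 were called in KO fibroblasts against KO lungs (65.2% of all probe sets), 2 of 2 in KO fibroblasts against KO heart (67.2%) and 3 of 3 in KO lungs against KO heart (68.4%). Ctsk was 22.6-fold higher in KO fibroblasts than in KO heart (log2 difference 4.50 ± 0.35, SE). Tnfrsf11b had a log2 difference of 3.98 in KO fibroblasts against KO heart, and Bmp4 one of -5.18 in KO fibroblasts against KO lungs, each low in 1 of the tissues. Mgp was 1.90-fold higher in KO fibroblasts than in KO heart (0.92 ± 0.25, adjusted p = 0.00544), and without the KO hearts 1602 and 1586 it was 0.38 (adjusted p = 0.216). The median over all tested probe sets was 0.32 for KO fibroblasts against KO heart and 0.32 for KO lungs against KO heart, and it was 0.11 and 0.07 after quantile normalization.

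**Figure D2:**
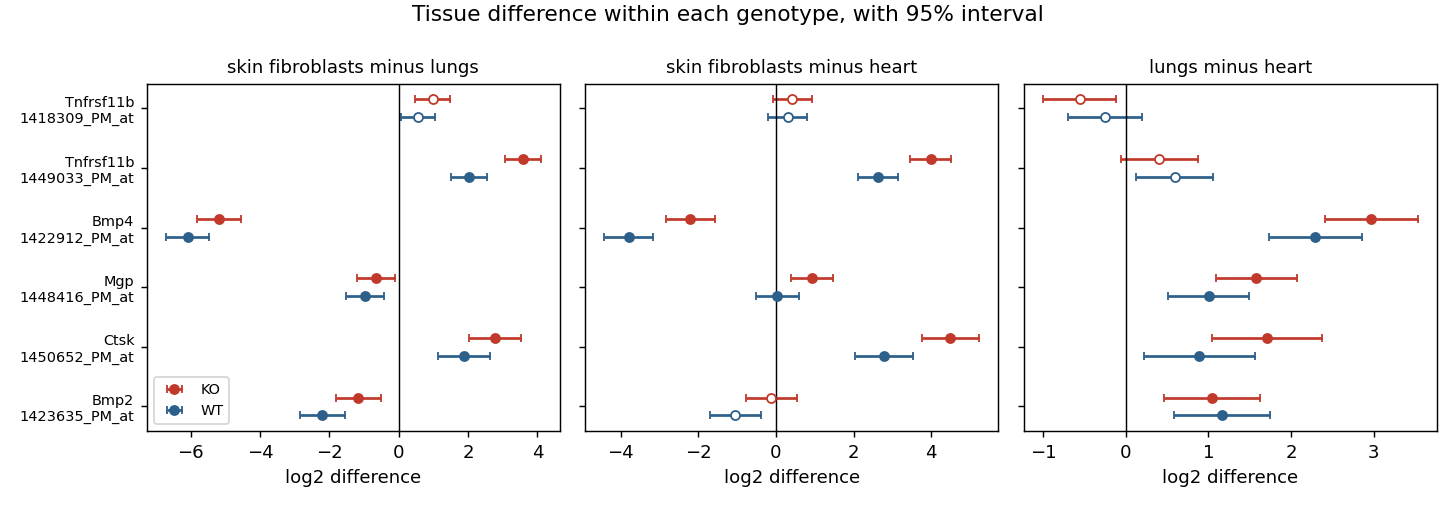
Log2 difference between tissues (x axis) for each member probe set (rows), within KO (red) and WT (blue), with its 95% interval as a bar. Filled points had a mean above 3.79 over the KO and WT arrays of at least 1 of the tissues, open points of neither. Ctsk, above 3.79 in every tissue, lay right of 0 in both panels with fibroblasts, in both genotypes. Bmp4 lay left of 0 there, but a member above 3.79 in only 1 of the tissues had to differ, so its interval is no test.

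KO was then compared with WT within each tissue. No member passed the adjusted test in any tissue with limma: 0 of 4 tested in lungs, 0 of 3 in heart and 0 of 3 in fibroblasts, where 0.0301%, 0.127% and 0.0549% of all tested probe sets were called. At an unadjusted p under 0.05 the counts were 1 of 4 in lungs (6.96% of all), 3 of 3 in heart (17.0%) and 1 of 3 in fibroblasts (3.33%). The median difference of the tested members was -0.22 in lungs, -0.93 in heart and 0.78 in fibroblasts, beside -0.06, -0.16 and 0.02 over all tested probe sets. With so few members the medians are those of 1 or 2 genes.

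In heart, the ligand Bmp4 averaged 5.94 ± 0.54 in KO and 6.87 ± 0.28 in WT (SD, n = 3 each), a log2 difference of -0.93 ± 0.26 (SE, unadjusted p = 0.00332, adjusted p = 0.134). Its highest KO value and lowest WT value, 6.55 and 6.56, nearly met. Ctsk averaged 5.75 ± 0.70 in KO hearts and 6.68 ± 0.41 in WT hearts, a difference of -0.93 ± 0.31 (SE, adjusted p = 0.181), and its nearest KO and WT values were 6.19 and 6.20. Mgp averaged 11.46 ± 0.51 in KO hearts and 12.23 ± 0.26 in WT hearts, a difference of -0.77 ± 0.23 (SE, adjusted p = 0.148), with KO 1603 above WT 1624. As deposited, groups did not overlap for 2 of these 3 genes, Bmp4 and Ctsk, both lower in KO. Of all tested probe sets, 13.7% were likewise lower without overlap. After quantile normalization the groups overlapped for Bmp4 and Ctsk as well, with KO 1603 above WT 1624 for each gene.

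Of the 22098 probe sets tested in heart 27.8% were higher in KO, so the whole array leaned the same way as these genes. Relative to the median of all, the KO difference was -0.77 for Bmp4, -0.77 for Ctsk and -0.61 for Mgp, and after quantile normalization, where that median was -0.02, it was -0.64, -0.65 and -0.81. The called probe sets of the whole array split into 4 higher and 24 lower as deposited and 11 higher and 14 lower after quantile normalization. Bmp2 and both Tnfrsf11b probe sets were below the filter in heart.

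The same KO hearts differed in tissue markers. The mean of 7 atrial markers was 6.06, 5.36 and 9.40 in KO hearts (1586, 1602 and 1603) and 9.73, 10.08 and 8.80 in WT hearts (1592, 1593 and 1624). For 7 mesothelium markers the KO means were 4.12, 4.03 and 6.36, against WT means of 7.42, 5.78 and 5.62. For 10 fibroblast markers the KO means were 7.40, 7.27 and 7.77, against WT means of 7.84, 8.37 and 7.90. KO 1586 and 1602 were thus low in atrial, mesothelial and fibroblast transcripts as well as in Bmp4 and Mgp, while KO 1603 was within or near the WT values. Other cell types were lower too: endothelial means were 7.01 to 7.68 in KO and 7.74 to 7.92 in WT, and smooth muscle means 6.37 to 6.64 in KO and 6.71 to 7.29 in WT, KO 1603 included. Macrophage means were 5.66 to 5.99 in KO and 5.90 to 6.06 in WT, and all 10 tested macrophage and all 10 endothelial markers had negative differences. Of the 6 tested smooth muscle markers, 4 had negative and 2 had positive differences. Alveolar and airway epithelium markers went the other way, with means of 3.38 to 4.16 in KO hearts and 3.30 to 3.31 in WT hearts. Of these, 2 of 2 tested had positive differences and 0 were called. Sftpc was between 3.41 and 6.22 in KO hearts and between 3.91 and 4.29 in WT hearts. All 7 tested atrial, all 7 mesothelium and all 9 tested fibroblast markers had negative differences and 0 of them were called, with unadjusted p under 0.05 for 5, 4 and 3. The mean of 6 ventricular markers was between 13.34 and 13.37 in KO and between 13.32 and 13.33 in WT.

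Without KO hearts 1586 and 1602, the difference was -0.31 for Bmp4, -0.22 for Mgp and -0.49 for Ctsk. This leaves 1 KO heart. The hearts left out are the KO hearts lowest in Bmp4, Mgp and Ctsk, so for each of these genes a smaller difference was fixed by the choice. KO heart 1603 is the KO heart highest in each of these genes, so leaving it out had to enlarge each difference. Without KO heart 1603, Bmp4 was called at -1.24 (adjusted p = 0.0166) and Mgp at -1.04 (adjusted p = 0.0170). Ctsk was at -1.15 (adjusted p = 0.0661). The calls over the whole array then numbered 1054 of 22075 probe sets, 985 of them lower, against 28 of 22098 with all hearts. The part of these marker differences in the member values was not tested.

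**Figure D3:**
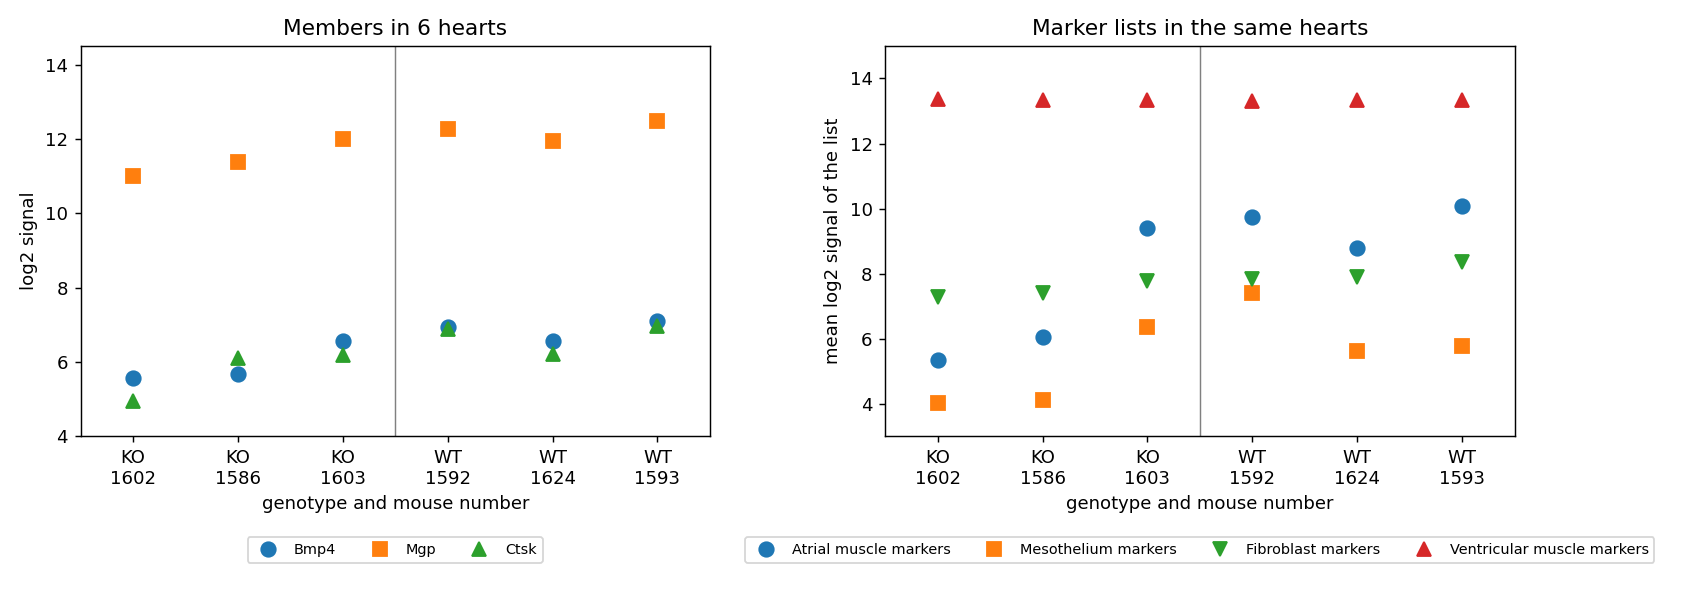
Log2 signal of Bmp4, Mgp and Ctsk (left) and mean log2 signal of 4 marker lists (right) in each heart, with genotype and mouse number on the x axis and KO left of the vertical line. KO 1602 and KO 1586 had the lowest Bmp4 and Mgp and the lowest atrial and mesothelium means, while the ventricular mean was between 13.32 and 13.37 in all 6 hearts.

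In skin fibroblasts the decoy receptor Tnfrsf11b (1449033_PM_at) averaged 6.67 ± 0.33 in KO and 5.27 ± 0.73 in WT (SD, n = 2 each). The log2 difference was 1.40 ± 0.26 (SE, 95% interval 0.83 to 1.96), or 2.63-fold, with an unadjusted p of 0.000131 and an adjusted p of 0.119. That SE pools the spread of all 6 groups. In lungs and heart, where this probe set was below 3.79, the group SDs were 0.06 to 0.18. The SE, interval and p thus draw on groups that varied less than the fibroblasts. Without 1 fibroblast sample at a time the difference was 0.88 to 1.91, lowest without WT sample 1571 and highest without WT sample 1623. It was called without WT sample 1623 and in no other of these 4 fits, each with 1 sample left in a group. With array weights in limma the adjusted p was 0.0357. The calls over all probe sets numbered 12 with all samples, 75 without WT sample 1623, 92 without WT sample 1571 and 40 with array weights. The dimmer probe set 1418309_PM_at, which was not tested, also had the higher mean in KO, 3.68 against 3.13.

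Ctsk averaged 10.24 ± 0.24 in KO fibroblasts and 9.46 ± 0.23 in WT fibroblasts (SD, n = 2 each), a log2 difference of 0.78 ± 0.38 (SE, 95% interval -0.03 to 1.60). Mgp averaged 12.38 ± 0.08 in KO and 12.27 ± 0.47 in WT, a difference of 0.11 with an interval of -0.49 to 0.71, and neither gene passed the test. Groups did not overlap for 2 of the 3 tested members, both higher in KO, where 19.5% of all tested probe sets were higher without overlap. Bmp4 and Bmp2 were below the filter in these cells.

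In lungs the widest difference among members was that of Bmp2, which averaged 4.33 ± 0.24 in KO and 5.02 ± 0.14 in WT (SD, n = 3 each). All 3 KO lungs were below all 3 WT lungs. The log2 difference was -0.69 ± 0.27 (SE, 95% interval -1.27 to -0.11), with an unadjusted p of 0.0234 and an adjusted p of 0.711. Mgp groups also did not overlap in lungs, averaging 13.04 ± 0.07 in KO and 13.23 ± 0.09 in WT (SD, n = 3 each). The difference was -0.19 ± 0.23, with an SE that pools the spread of all 6 groups. Of all tested probe sets, 6.46% were lower in KO without overlap.

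Bmp4 and Ctsk overlapped between the genotypes in lungs. Their differences were -0.25 with a 95% interval of -0.81 to 0.31 and -0.11 with an interval of -0.78 to 0.56, so changes of either sign remain within the intervals. The 3 lungs that carried adipocyte transcripts hold the higher KO values of Bmp2, 4.37 and 4.55, and its lowest WT value, 4.89. Leaving them out therefore had to widen the Bmp2 difference. Without these 3 lungs the Bmp2 difference was -1.01 and the Ctsk difference 0.09. This leaves 1 KO lung, 1602, taken to vary like the other groups. That lung had the lowest smooth muscle mean, 4.93 against 5.85 to 6.89 in the other 5. With all lungs, all 10 endothelial and all 6 tested smooth muscle markers had negative KO differences. All 5 tested adipocyte markers had positive ones, the other lists held both signs, and 0 were called. Ventricular means were 4.89 to 8.39 in KO lungs and 6.70 to 8.08 in WT lungs. The part of these marker differences in the member values was not tested.

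**Figure D4:**
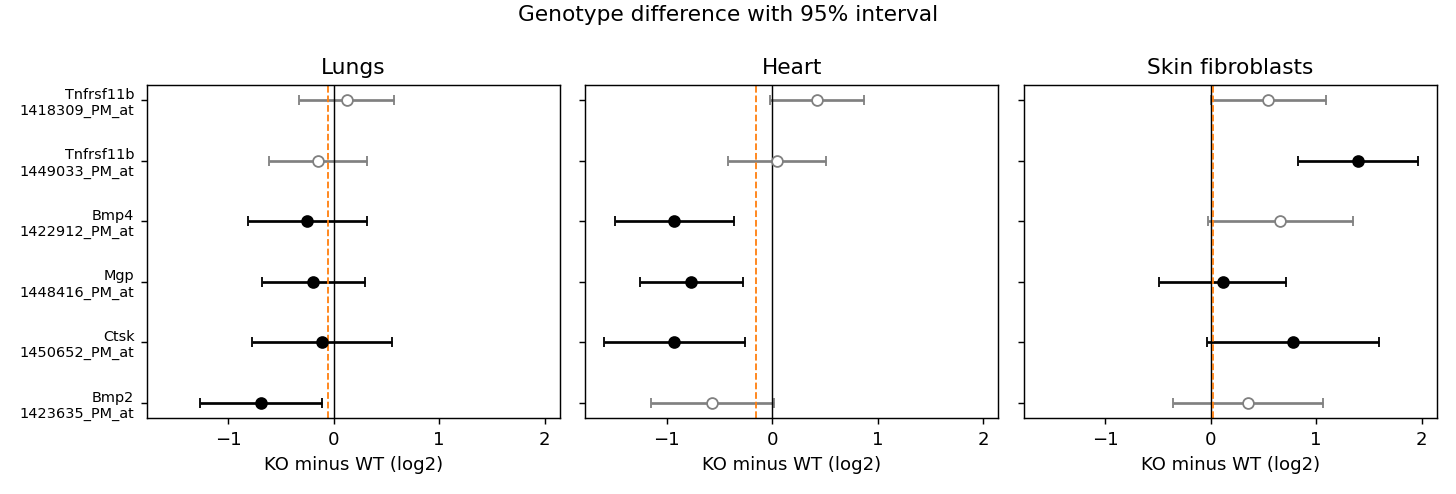
KO minus WT log2 difference (x axis) of each member probe set (rows) in lungs, heart and skin fibroblasts, with its 95% interval. Filled points were tested and open points were below the filter; the dashed line is the median of all tested probe sets (-0.06, -0.16 and 0.02), and the 3 filled heart points lay between -0.93 and -0.77.

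Genotype differences were averaged over the 3 tissues and then compared between them. On the mean of 3 tissues 0 of 5 tested members were called, where 0.0717% of all were, and of the 2 that lay above 3.79 in every tissue, Mgp and Ctsk, 0 had an unadjusted p under 0.05 (8.16% of all). Their differences were -0.28 for Mgp and -0.08 for Ctsk. The means of Tnfrsf11b, Bmp4 and Bmp2 include tissues where the signal was low and are not given as results.

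For fibroblasts against heart, the difference between the genotype effects was itself tested. Only members above 3.79 in both tissues are given. The difference was 1.71 ± 0.49 for Ctsk (SE, adjusted p = 0.462) and 0.88 ± 0.36 for Mgp (adjusted p = 0.612). With limma 0 of these 2 were called (0.0203% of all tested probe sets), and 2 of 2 had an unadjusted p under 0.05 (7.77% of all). For fibroblasts against lungs 0 of 2 were called (0.0197% of all) and 0 of 2 had an unadjusted p under 0.05 (4.37% of all). For heart against lungs 0 of 3 were called (0% of all) and 0 of 3 had one (7.22% of all). The 3 tests share arrays, and the lungs and hearts came from the same mice.

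The wider pathways were followed through 12 lists of 174 distinct genes. They covered BMP ligands, receptors, antagonists and targets, bone matrix, phosphate handling, and vitamin K and Gla protein genes. The RANK axis, cathepsins, cartilage, osteopontin receptors and RUNX partners were also covered. Between genotypes 0 of 114 tested genes were called in lungs, 0 of 109 in heart and 0 of 118 in fibroblasts. At an unadjusted p under 0.05 there were 2 higher and 6 lower in lungs, 1 higher and 26 lower in heart, and 7 higher and 2 lower in fibroblasts. Over all tested probe sets 3.30% were higher and 3.66% lower in lungs at that level, 2.08% and 14.9% in heart, and 2.11% and 1.22% in fibroblasts. The median difference of the tested pathway genes was -0.15 in lungs, -0.30 in heart and 0.02 in fibroblasts.

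The following heart values are from genes that had 1 of the 2 smallest p in their list, and none of them was called. Smad7, an inhibitor of BMP and TGF-beta signalling, averaged 5.65 ± 0.24 in KO and 6.67 ± 0.45 in WT, a log2 difference of -1.02 (adjusted p = 0.122). Fstl1, a secreted follistatin-like antagonist, had a difference of -0.97 (adjusted p = 0.122), and the receptor Acvr1 one of -0.65 (adjusted p = 0.217). Fgfr1, a receptor through which FGF23 controls phosphate, averaged 5.72 ± 0.51 in KO and 6.80 ± 0.27 in WT, a difference of -1.08 (adjusted p = 0.0703). Cd44, a receptor for osteopontin and hyaluronan, had a difference of -1.30 (adjusted p = 0.0835), and the cartilage matrix gene Comp one of -1.89 (adjusted p = 0.0860). Tle3, a corepressor that partners RUNX proteins, had a difference of -1.03 (adjusted p = 0.0866), Snx10, a sorting nexin needed by osteoclasts, one of -0.81 (adjusted p = 0.154), and the ligand Bmp6 one of -0.75 (adjusted p = 0.377). Ucma, a Gla protein of cartilage, was the one among them with a positive difference, 0.68 (adjusted p = 0.144).

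In fibroblasts the corresponding genes with the smallest p included Car2, the carbonic anhydrase that osteoclasts use to make acid, at 1.35 (adjusted p = 0.622). Twist2, a transcription factor that restrains RUNX2, averaged 9.997 ± 0.49 in KO and 9.02 ± 0.32 in WT, a difference of 0.97, and Bmpr1b, a BMP receptor, had a difference of 1.26. Pparg, the regulator of fat cell formation, had a difference of -1.13, and none of these 3 genes passed the test. In lungs the smallest p values were those of Tcirg1, a proton pump subunit of osteoclasts, at 0.40, Mmp9, a gelatinase, at 0.61, and Cst3, the cathepsin inhibitor cystatin C, at -0.28, each with an adjusted p of 0.711.

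Between tissues many genes of the same lists were called, as were most probe sets of the array. In WT fibroblasts against WT lungs 94 of 131 tested pathway genes were called, 58 higher and 36 lower, and against WT heart 94 of 128 were called, 67 higher and 27 lower. These counts, like those over all probe sets, include genes with a low signal in 1 of the tissues. Of the 15 tested bone matrix and osteoblast genes 13 were called against lungs, 12 of them higher in fibroblasts, beside 60.1% called and 31.7% called higher over all tested probe sets. The genes in the next sentences were picked after their values were seen and are given as levels, with no test. Tnfsf11, which encodes RANK ligand, the target of the decoy receptor Tnfrsf11b, averaged 6.86 ± 0.32 in KO fibroblasts and 6.53 ± 1.66 in WT fibroblasts (SD, n = 2 each), against 2.67 ± 0.27 in KO lungs and 2.79 ± 0.21 in WT lungs. Grem1, a secreted antagonist that binds BMP2 and BMP4, averaged 9.74 ± 0.81 in KO fibroblasts and 9.87 ± 1.10 in WT fibroblasts, against 2.93 ± 0.19 in KO lungs and 2.91 ± 0.26 in WT lungs.

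Tnfrsf11a, the RANK receptor of osteoclast precursors, was between 2.97 and 3.18 in all 6 group means, below the median of all values; it and the next 2 genes were likewise picked after their values were seen. Of the matrix proteins made by mature bone cells, Ibsp averaged between 2.78 and 3.14 and Dmp1 between 2.61 and 2.85 in the 6 groups.

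Over the 16 arrays, the members fell into pairs by their profiles. Pearson's r was 0.90 between Ctsk and Tnfrsf11b 1449033_PM_at and 0.88 between Bmp2 and Bmp4, and it was -0.69 between Bmp4 and Tnfrsf11b. These values describe arrays that form 3 tissue clusters, so they restate the tissue order. By the same measure the 3 genes nearest to Bmp4 were Synm (0.99), Arap2 (0.99) and Lyve1 (0.99), those nearest to Ctsk were Kif26b (0.98), Spats2 (0.98) and Cbfb (0.98), and those nearest to Tnfrsf11b were 5430416N02Rik (0.98), Nme1 (0.97) and Septin5 (0.97). Mgp was nearest to Usp36 (0.97), Fam117a (0.96) and Fbxl14 (0.96), and Bmp2 to Rnf130 (0.93), Gsn (0.93) and Adamtsl2 (0.93). Cbfb, which encodes the partner of RUNX proteins, averaged 9.69 ± 0.16 in KO fibroblasts and 9.56 ± 0.01 in WT fibroblasts, 8.63 ± 0.17 in KO lungs and 8.76 ± 0.03 in WT lungs, and 7.82 ± 0.45 in KO heart and 8.39 ± 0.11 in WT heart, the tissue order of Ctsk.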

How the data were processed

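RNA was extracted with Trizol and biotin-labelled cRNA was hybridised to Affymetrix mouse arrays, per the labels' protocols. The authors deposited log2 signals, 1 for each probe set on each array; their scale was inferred from the range of values. Partek 6.4 appears in the submitters' processing notes. The step of background correction and that of normalization: not given in the sources used here. Precision is limited by how many arrays there are. Of 45141 entries, 104 controls were set aside. Of the 45037 probe sets 28898 have 1 gene, 551 several and 15588 none, and of those with 1 gene 28689 were matched by gene number. No 2 arrays were identical (the closest pair differed by 0.190 on average).

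All 16 arrays entered 1 model of 6 group means in limma 3.58.1 in R 4.3.3 (10 residual and 3.53 prior degrees of freedom). Probe sets were kept where their mean over the KO and WT arrays of a compared tissue lay above 3.79. Two-sided p-values were adjusted by the Benjamini-Hochberg method over all kept probe sets. The steps were tested on simulated data. Each mouse number was read as 1 animal, and p-values measure the spread between these samples. Lungs and heart share 6 mice by number: their deviations correlated at 0.0597 to 0.128, over 0.1 for 2 of 6 mice. Alternatives were quantile normalization, no filter, a filter at 5, only the compared arrays, the mouse as a random block, array weights, leaving out each array and, chosen after seeing the data, leaving out 3 lungs or 2 hearts.

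The members, the 12 pathway lists and the 9 marker lists were chosen with earlier results of these data known. Named genes were all member probe sets, up to 2 genes per list and comparison with the smallest p where none was called, the 3 genes most correlated with each member over 16 arrays, and markers needed to check a tissue. A gene's leading probe set was that with the highest mean. Promoter sequences came from RefSeq (GRCm38.p6), without protein sequences.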

Additional observations from a re-analysis of the deposited data

How the results depend on the processing

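Quantile normalization, no filter, a filter at 5, the compared arrays alone and the mouse as a random block (replicate block) left the number of members called at its reported value or within 1.5 times of it in every comparison run; the replicate block changed no member's call, with 0 members called in KO against WT lungs, heart and fibroblasts. With array weights 1 member was called in KO against WT fibroblasts. Leaving out 1 array at a time gave 0 to 2 members in KO against WT heart, 0 to 1 in KO against WT fibroblasts, and 0 to 1 for the difference of genotype effects of fibroblasts from lungs and from heart. The 2 heart calls came without KO 1603, and each of the other calls without WT fibroblasts 1623. Without the 3 lungs with fat transcripts, 3 members were called in KO fibroblasts against KO lungs. These counts include members above 3.79 in only 1 of the tissues, which the report gives without a test.

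Among single members, Ctsk, Mgp and Bmp4 had differences that turned sign under some alternatives, none of them called. Ctsk in KO against WT lungs was 0.043 with array weights, 0.088 without the 3 lungs with fat transcripts, and -0.29 to 0.047 without 1 array at a time, above 0 without KO 1586 or WT 1592. On the mean of 3 tissues Ctsk was 0.029 after quantile normalization, 0.089 with array weights and 0.063 without the 2 KO hearts. Without 1 array at a time that Ctsk mean was -0.16 to 0.051, above 0 without KO heart 1602. Bmp4, low in fibroblasts, was -0.17 on the mean of 3 tissues with all arrays and 0.033 without the 2 KO hearts. Without 1 array at a time, Mgp was -0.22 to 0.45 in KO against WT fibroblasts, below 0 without WT 1571, and -0.29 to 0.37 in WT fibroblasts against WT heart, below 0 without WT heart 1624 or WT fibroblasts 1623. The cause was not tested. Calls between tissues were lost for Mgp in KO fibroblasts against KO lungs without a filter (adjusted p = 0.0569) and without any 1 of the 5 arrays (0.0537 to 0.144), for Ctsk in WT lungs against WT heart without WT lungs 1592 (0.0880), WT lungs 1624 (0.0586) or WT heart 1624 (0.110), and for Mgp in WT fibroblasts against WT lungs without WT 1571 (0.0929). Without the 3 lungs, the call was lost for Ctsk in WT lungs against WT heart (0.113). It was also lost for Mgp in KO fibroblasts against KO lungs, a fit with 1 KO lung left. Without the 2 KO hearts the call was lost for Mgp in KO fibroblasts against KO heart, with 1 KO heart left. The fibroblast groups hold 2 samples, so without 1 of them the other is taken to vary like the other groups.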

Other observations

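The list of vitamin K and Gla protein genes included 8 tested genes in heart. It holds Gla proteins, the class of Mgp, and also genes that are not Gla proteins, such as Ggcx, Vkorc1 and Nqo1. All but 1 had negative KO differences, 6 had an unadjusted p under 0.05 and 0 were called with limma, where 14.9% of all tested probe sets were lower in KO at an unadjusted p under 0.05. Prrg1 and Prrg3, transmembrane Gla proteins, had log2 differences of -0.72 (adjusted p = 0.170) and -0.79 (adjusted p = 0.181). In lungs 0 of 8 and in fibroblasts 1 of 9 tested genes of this list had an unadjusted p under 0.05.

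Among BMP signalling genes in heart, all 11 tested SMADs and targets and all 11 tested osteoblast and bone matrix genes had negative differences, with 0 called and an unadjusted p under 0.05 for 2 and 4 of them. Over all tested probe sets 27.8% had a positive difference and 14.9% were lower at that level. Of the BMP receptors 7 of 9 and of the antagonists 8 of 9 had negative differences, with medians of -0.15 and -0.29 beside -0.16 over all tested probe sets. Bgn, the matrix proteoglycan biglycan, had a difference of -0.77 (adjusted p = 0.151). Fibroblast markers were lower in the same KO hearts, as given in the report, and their part in these values was not tested. Among cathepsins, relatives of Ctsk, Ctsz had a difference of -0.71 in heart (adjusted p = 0.217) and Ctsc one of 0.88 in fibroblasts, not called.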
